A study of Mus musculus with 31 samples.

Results

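Dopamine is made, packed, recovered and broken down by the products of a handful of genes, and 6 of them were followed here across both brain regions, strains and rearing treatments: Th, Ddc, Slc6a3, Slc18a2, Maoa and Maob. They were chosen by name, through the RefSeq accession that the array annotation gives each probe, and are 6 of 17908 named genes that could be tested. The samples were medial prefrontal cortex (mPFC) and nucleus accumbens (NAc) of female mice that carried no transgene, labelled as 12 weeks old, of the inbred strains C57BL/6J (C57 below) and DBA2/J (DBA below). Repeated cross-fostering (RCF) moved whole litters to a different dam each day from postnatal day 1 to day 4, through 4 adoptive mothers, while control litters were only lifted out and put back. All were weaned on day 28, at most 2 animals came from a cage or litter, and RNA with an integrity number under 8.0 was discarded. The 31 single-colour arrays fell into 8 groups of strain, region and treatment, with 3 arrays of C57 mPFC control and 4 of each other group.

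Tyrosine hydroxylase (Th) carries out the rate-limiting step of dopamine synthesis, turning tyrosine into L-DOPA, and aromatic L-amino acid decarboxylase (Ddc) turns L-DOPA into dopamine. The vesicular transporter VMAT2 (Slc18a2) loads monoamines into synaptic vesicles and the dopamine transporter (Slc6a3) takes released dopamine back up. Monoamine oxidases A and B (Maoa, Maob) degrade the amine, Maob mostly in astrocytes and in serotonergic neurons. Midbrain dopamine neurons project to both regions, but their cell bodies lie outside them, so that RNA in a dissected target region comes mainly from local cells and from whatever RNA the axons carry. In bulk tissue, fewer cells of a type and less RNA per cell cannot be told apart.

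The upstream sequences of Ddc, Slc6a3 and Th are shown because Ddc was called between regions and strains, Slc6a3 and Ddc had the called strain by region terms, and Th heads the pathway. They are the 250 bases before the RefSeq gene start in GRCm38.p6, written 5′ to 3′ on the gene's strand, and capitals mark matches to a CRE (TGACGTCA), a GC box (GGGCGG), an NBRE (AAAGGTCA) or a TATA box (TATAAA) on either strand.
Ddc, chr11:11898145-11898394, minus strand: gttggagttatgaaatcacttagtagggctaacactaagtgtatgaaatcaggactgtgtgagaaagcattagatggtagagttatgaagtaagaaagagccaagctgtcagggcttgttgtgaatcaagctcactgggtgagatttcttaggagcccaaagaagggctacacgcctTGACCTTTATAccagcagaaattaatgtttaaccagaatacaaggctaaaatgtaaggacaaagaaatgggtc
Ddc, second start, chr11:11890409-11890658, minus strand: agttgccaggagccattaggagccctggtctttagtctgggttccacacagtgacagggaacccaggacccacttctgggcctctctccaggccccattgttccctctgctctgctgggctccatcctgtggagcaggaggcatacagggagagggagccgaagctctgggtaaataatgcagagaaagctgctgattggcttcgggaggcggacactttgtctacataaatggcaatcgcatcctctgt
Slc6a3, chr13:73536497-73536746, plus strand: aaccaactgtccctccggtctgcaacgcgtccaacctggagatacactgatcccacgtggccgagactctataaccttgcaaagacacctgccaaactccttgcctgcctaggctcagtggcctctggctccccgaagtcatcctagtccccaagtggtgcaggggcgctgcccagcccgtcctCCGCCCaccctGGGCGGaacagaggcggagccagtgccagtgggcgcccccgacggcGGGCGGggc
Th, chr7:142899996-142900245, minus strand: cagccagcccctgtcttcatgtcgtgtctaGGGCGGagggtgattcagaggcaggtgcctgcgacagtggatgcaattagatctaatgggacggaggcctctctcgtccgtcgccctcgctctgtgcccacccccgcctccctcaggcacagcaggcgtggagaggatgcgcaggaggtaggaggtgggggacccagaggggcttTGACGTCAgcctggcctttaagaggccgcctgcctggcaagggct
In the Th sequence the CRE began 45 bases before the start, and 1.79% of 32851 RefSeq promoter windows of 300 bases held that motif. The Slc6a3 sequence held 3 GC boxes, a motif found in 35.7% of the windows. One Ddc start had an NBRE (1.51% of windows) that overlapped a TATA box match (13.6% of windows) on the reverse strand, and none of these 4 motifs occurred in the window of the other Ddc start. Promoter entries were matched for 5 of the 6 genes.

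Levels are given on a log2 scale with each array's 75th percentile set to 0, so that 1 unit is a doubling. The brightest probe of each gene was well above background on all 31 arrays and saturated on none, so none of the 6 genes was lost to the filter on dim probes. A level depends on the probe as well as on the RNA, so levels were compared between samples and not between genes.

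Sample identity limited the comparisons. The deposited value table and the scanner files disagree on labels: 29 of 31 arrays matched the value column of another listed sample, 27 of them in another group. The value table's labels were used. Under them strain markers lay on the wrong side of a cut-off in 2 arrays and region markers in 5, against 16 and 15 as listed. Each cut-off was midway between the strain medians, or the region medians, under the value table's labels. It was therefore not set independently of those labels. Of 45 pairs of arrays within groups, 4 differed by little more than repeat spots of a probe within an array and were averaged, which left 27 samples. In C57 NAc control, array 1 was averaged with 3 and array 2 with 4, in DBA mPFC control 2 with 4, and in DBA mPFC RCF 1 with 3. This left 2 samples of C57 NAc control, 3 of C57 mPFC control and of each DBA mPFC group, and 4 of every other group. Of these samples, 6 still carried markers of another strain, region or sex: C57 mPFC control 3, C57 mPFC RCF 1, C57 NAc control 1 and 3, C57 NAc RCF 1, DBA mPFC control 1 and DBA NAc control 4. They were kept, are called samples in doubt below, and values without them are given beside the calls and near calls below. Without them C57 NAc control keeps 1 sample, and C57 mPFC control and DBA mPFC control keep 2 each. Leaving out either C57 NAc control sample also leaves 1 in that group. Differences with that group then rest on 1 sample, and the spread in their test comes from the other groups. Each strain and region was hybridised on a slide of its own, so slide cannot be told apart from strain or region, whereas both treatments shared each slide. Within slides, control arrays lay in columns 1 and 2 and RCF arrays in columns 3 and 4. The exceptions were DBA NAc RCF 3 in column 2 and DBA NAc control 4 in column 4. Treatment can therefore hardly be told apart from column on the slide.

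Of 10 markers of midbrain dopamine neurons, 8 could be tested. Foxa2, a transcription factor of midbrain dopamine neurons, was well above background on 0 of 31 arrays and En1 on 4. Nr4a2, Pitx3, Lmx1b, Aldh1a1, Ret and Chrna6 were above it on 31, Slc10a4 on 21 and Chrnb3 on 8. The noradrenaline transporter Slc6a2, a marker of noradrenergic neurons, was above background on 0 arrays, whereas Dbh, the noradrenaline-making enzyme of those neurons, was above it on 25. The serotonergic markers Tph2 and Slc6a4 were above background on 3 and 2 arrays, and Fev, a transcription factor of serotonergic neurons, on 31.

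**Figure D1:**
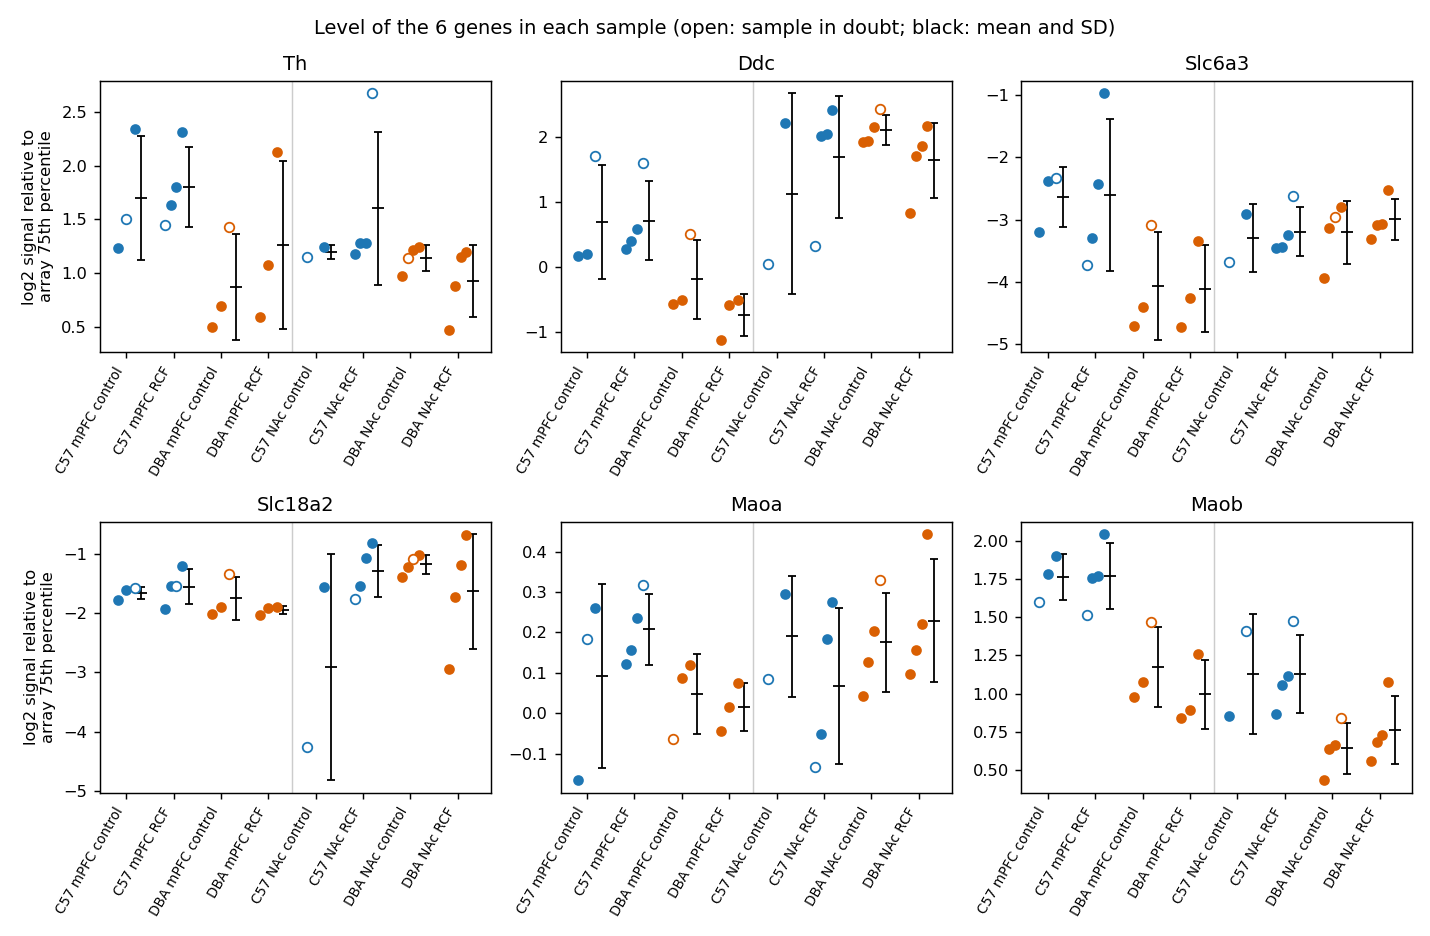
Each point is 1 sample's level (log2, with its array's 75th percentile at 0), in 8 groups for each gene (blue C57, orange DBA, open circles samples in doubt), with the group mean and SD in black. Ddc is low in the DBA mPFC groups, Maob is high in the C57 mPFC groups, and Slc18a2 has 1 C57 NAc control sample at -4.26.

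Rearing came first among the comparisons. Between RCF and control groups of the same strain and region, none of the 6 genes was called. Of 24 differences, 0 passed an adjusted p of 0.05 in limma's moderated test across all 30178 features. Among all features the same rule called 0% in C57 mPFC, 0.590% in C57 NAc, 0% in DBA mPFC and 0% in DBA NAc, so calls were rare for any gene. At an unadjusted p under 0.05 the features called were 745 (2.47%), 3355 (11.1%), 470 (1.56%) and 606 (2.01%) in that order. Only the C57 NAc share lay above what that cut-off passes by chance alone. That comparison has 2 control samples, 1 of them in doubt. For Th, the RCF minus control differences ran from -0.22 in DBA NAc to 0.40 in C57 NAc, and for Ddc from -0.55 in DBA mPFC to 0.57 in C57 NAc. The intervals were wide for the transporters and narrow for the oxidases: in DBA NAc the 95% interval was -0.75 to 1.16 for Slc6a3 and -0.18 to 0.29 for Maoa. Those intervals leave room for a doubling of Slc6a3 but not of Maoa.

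Slc18a2 in C57 NAc had the largest of these 24 differences, 1.61 ± 0.51 (SE) higher with RCF, with an adjusted p of 0.19 in limma. Its control samples were -4.26 (1 and 3) and -1.56 (2 and 4), against RCF samples at -1.77, -1.55, -1.07 and -0.81. A single control sample thus lay far under every RCF sample, and the other lay among them. That low sample is in doubt for its region and its 2 arrays read -4.30 and -4.22. It lay under every mPFC sample as well, the lowest of which was DBA mPFC RCF 1 and 3 at -2.03. The difference was 0.41 when the samples in doubt were left out, and 2.96 without C57 NAc control 2 and 4. Each of these fits leaves a single C57 NAc control sample, in the latter the one in doubt.

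**Figure D2:**
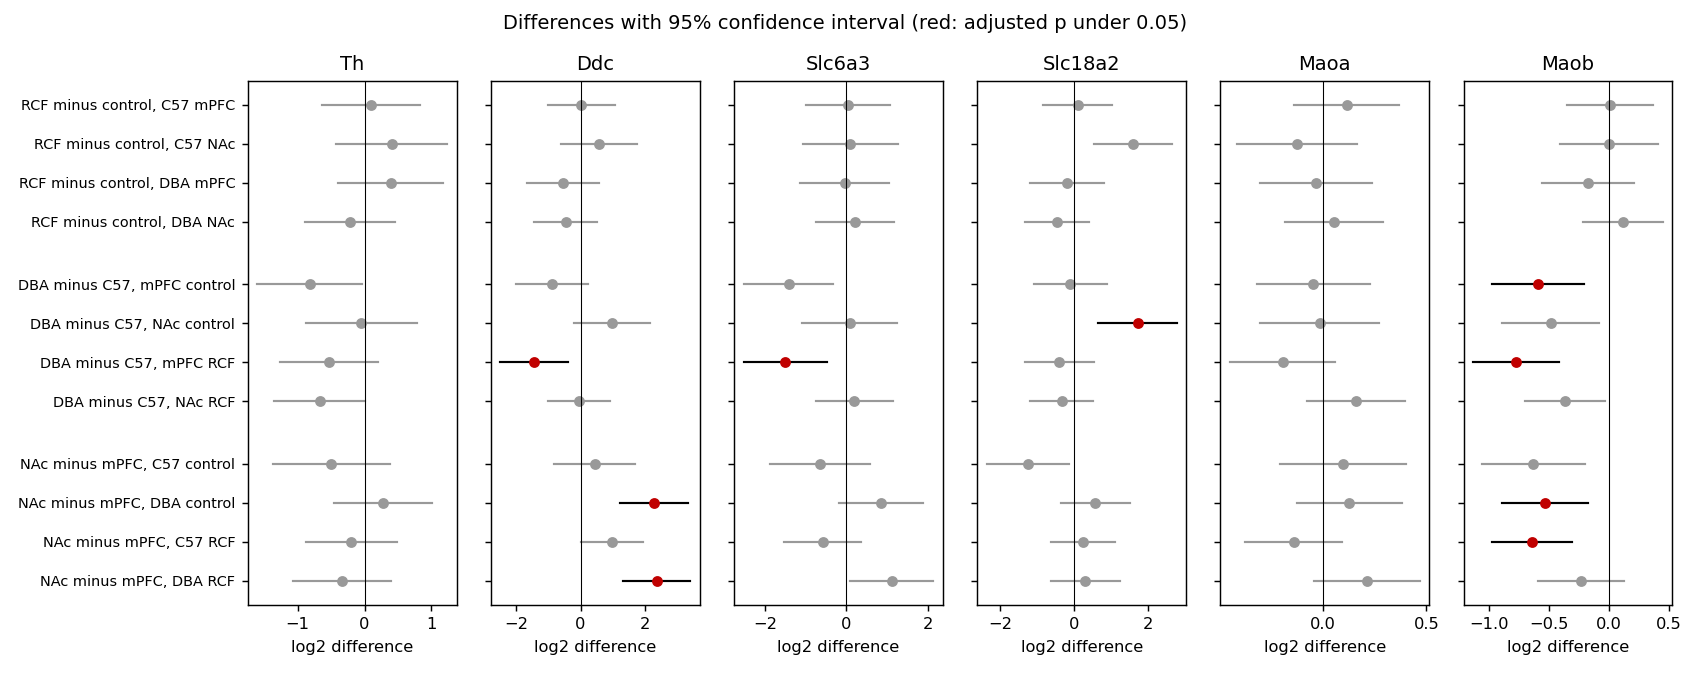
Each point is a log2 difference between groups for 1 gene, with its 95% confidence interval, for 12 comparisons (rows) of RCF with control, DBA with C57 and NAc with mPFC, and red points have a limma adjusted p under 0.05. No RCF comparison is red, and the Ddc differences of 2.29 and 2.37 between the DBA regions lie farthest from 0.

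For synthesis, Ddc separated the regions in DBA mice. In DBA mPFC control it was 0.51, -0.57 and -0.51, and in DBA mPFC RCF -0.51, -1.12 and -0.59. In DBA NAc control it was 1.93, 2.14, 1.91 and 2.42, and in DBA NAc RCF 1.70, 1.85, 2.16 and 0.83. Every DBA NAc sample was thus above every DBA mPFC sample, a separation that 45.8% of all features showed in controls and 48.4% with RCF. Ddc was higher in NAc by 2.29 ± 0.50 in controls (4.89-fold, adjusted p 0.00132) and by 2.37 ± 0.50 with RCF (5.18-fold, adjusted p 0.000998). The adjusted p is limma's, as throughout.

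In C57 mice Ddc was more scattered. C57 mPFC control samples were 0.20, 0.17 and 1.70, and C57 mPFC RCF samples 1.60, 0.27, 0.58 and 0.40. C57 NAc control samples were 0.04 and 2.22, and C57 NAc RCF samples 0.32, 2.41, 2.01 and 2.04. The mPFC samples at 1.70 and 1.60 and the NAc samples at 0.04 and 0.32 lay at the level of the other region, and these 4 are the C57 samples in doubt. Ddc was 0.44 higher in NAc of controls (adjusted p 0.84) and 0.98 higher with RCF (adjusted p 0.194), and neither passed. Without the samples in doubt Ddc was higher in NAc in all 4 comparisons, by 2.53 and 2.37 in DBA controls and DBA RCF. In C57 it was higher by 2.03 in controls, with 1 NAc sample left, and by 1.74 with RCF (adjusted p 0.000105). Leaving out C57 NAc RCF 1 alone was enough for the C57 RCF difference, then 1.44, to pass (adjusted p 0.0384).

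Region markers moved with Ddc, within C57 as well as between the DBA regions. The score of 10 striatal projection neuron markers minus 8 cortical excitatory neuron markers was 4.25 and 5.01 in the mPFC samples in doubt, which had the high Ddc levels, and -0.84 and -0.53 in the NAc samples in doubt, which had the low ones. In DBA, 6 of 10 striatal markers were higher in NAc in controls and 9 of 10 with RCF, and 8 of 8 cortical markers were lower in both. The score ran from -1.64 to 0.92 in DBA mPFC and from 4.49 to 8.32 in DBA NAc, but from -1.06 to 5.01 in C57 mPFC and from -0.84 to 7.61 in C57 NAc. Among the 8 dopamine neuron markers tested, 2 were higher and 3 lower in NAc of DBA controls, and 4 higher and 3 lower in DBA RCF, and the 3 cholinergic markers were higher in both. With this score as a covariate, an alternative added after seeing the data, the Ddc region difference in DBA was 0.43 in controls (adjusted p 0.461) and 0.56 with RCF (adjusted p 0.278), and neither passed. The score is built from region markers and did not overlap between the DBA regions, so this fit cannot tell region from score. Whether tissue composition sets the Ddc level was not tested.

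**Figure D3:**
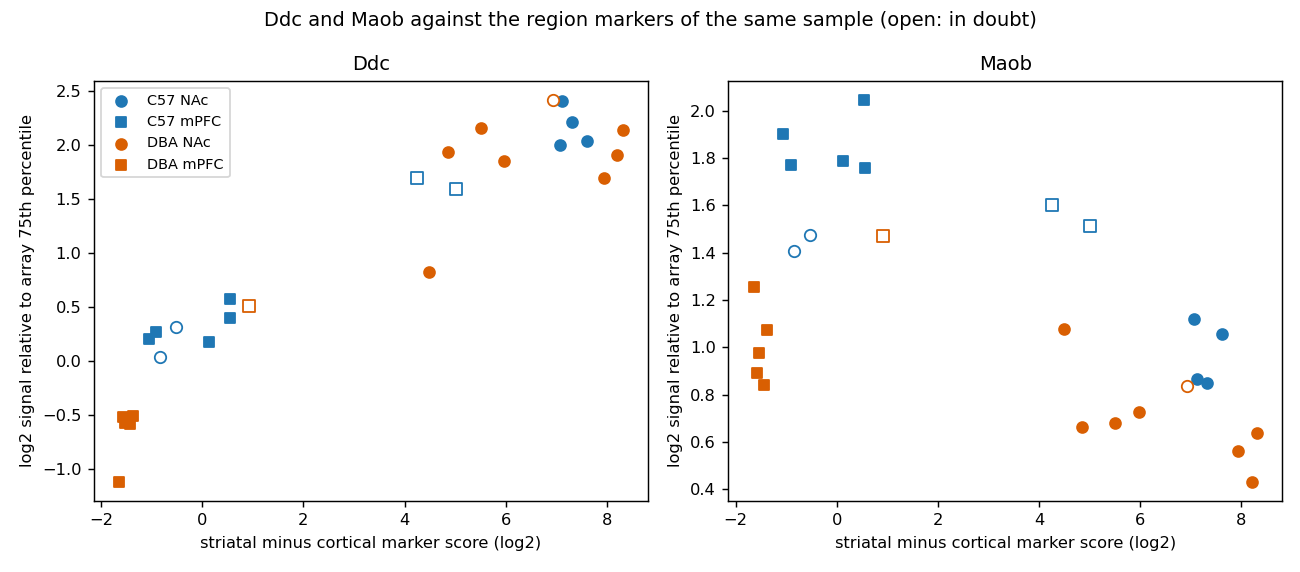
Each point is 1 sample, with the striatal minus cortical marker score (log2) across and the level of Ddc or Maob (log2, array 75th percentile at 0) up. Circles are NAc, squares mPFC, blue C57, orange DBA and open points samples in doubt. In the Ddc panel, levels are higher in samples with a higher score, and the 4 open C57 points lie with samples of like score and not of like region label.

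Between strains, Ddc in mPFC was lower in DBA than in C57 with RCF, by 1.45 ± 0.50 on the log2 scale (2.73-fold, adjusted p 0.0294), and the groups did not overlap, as for 45.0% of features. In mPFC of controls the DBA minus C57 difference was -0.88 (adjusted p 0.249). These were -1.15 (adjusted p 0.00179) and -0.73 (adjusted p 0.0986) without the samples in doubt. The RCF call was lost without C57 mPFC RCF 1 (-1.15), DBA mPFC RCF 1 and 3 (-1.56), DBA mPFC RCF 2 (-1.26) or DBA mPFC RCF 4 (-1.53), with adjusted p from 0.0509 to 0.112. In NAc the strain differences were 0.97 in controls (adjusted p 0.243) and -0.06 with RCF (adjusted p 0.957), or -0.22 and -0.52 without the samples in doubt (adjusted p 0.788 and 0.139). Without C57 NAc control 2 and 4 the control difference was 2.06, but only the sample in doubt then stood for C57.

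A second Ddc probe, annotated to another RefSeq transcript, was well above background on 30 arrays. It gave the same direction between regions, with NAc higher by 2.19 and 1.73 in DBA controls and DBA RCF (adjusted p 0.00198 and 0.0102) and by 0.90 and 1.84 in C57 (adjusted p 0.609 and 0.0195). It did not give the strain difference in mPFC, where DBA minus C57 was 0.40 in controls and 0.37 with RCF (adjusted p 0.631 and 0.602). The lower Ddc level in DBA mPFC RCF therefore rests on a single probe. With both probes averaged it was -0.54 (adjusted p 0.414), and with normexp background correction of the brightest probe -1.21 (adjusted p 0.0696). With the region score as a covariate it was -0.76 (adjusted p 0.0227).

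Th showed no difference that passed in any of the 12 comparisons. Its mean level ran from 0.87 ± 0.49 (SD, n = 3) in DBA mPFC control to 1.80 ± 0.37 (n = 4) in C57 mPFC RCF, and in that order no group stood apart from the next by more than the larger of their SDs. The C57 mPFC control samples were 2.34, 1.24 and 1.51, and the DBA mPFC control samples 1.43, 0.70 and 0.50. These groups overlapped only through the DBA sample at 1.43, which is in doubt. DBA was lower by 0.82 ± 0.38 (adjusted p 0.119), and without the samples in doubt by 1.19 with an adjusted p of 0.0406. In NAc RCF the DBA minus C57 difference was -0.67 (adjusted p 0.179), and -0.32 without the samples in doubt, where C57 NAc RCF 1, at 2.67, no longer counted.

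For reuptake, Slc6a3 was a dim but measured probe, and it was lowest in DBA mPFC. DBA mPFC control samples were -3.08, -4.41 and -4.70 and DBA mPFC RCF samples -4.25, -4.73 and -3.35. C57 mPFC control samples were -2.39, -3.20 and -2.33, and C57 mPFC RCF samples -3.73, -3.30, -2.42 and -0.97. The C57 RCF samples spread widely, with the lowest inside the DBA range. DBA was lower than C57 by 1.50 ± 0.50 with RCF (2.84-fold, adjusted p 0.0226, or 0.0976 with only these groups fitted) and by 1.43 ± 0.53 in controls (adjusted p 0.054).

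Both of these mPFC differences passed without the samples in doubt, at -1.76 in controls (adjusted p 0.0378) and -1.88 with RCF (adjusted p 0.0052). The RCF call was lost without C57 mPFC RCF 4 (-0.96), DBA mPFC RCF 1 and 3 (-1.43) or DBA mPFC RCF 2 (-1.20), with adjusted p from 0.0691 to 0.12. The control difference passed without C57 mPFC control 2 (-1.71), without C57 mPFC RCF 1 or RCF 4 (-1.43 in each) and without DBA mPFC control 1 (-1.92), with adjusted p from 0.0182 to 0.0495. In NAc the group means lay between -3.29 and -3.00, and DBA minus C57 was 0.08 in controls and 0.20 with RCF (adjusted p 0.934 and 0.834).

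Between regions, Slc6a3 was 1.11 higher in NAc than mPFC in DBA RCF with an adjusted p of 0.0797, which became 0.0456 without the samples in doubt, 0.0325 without C57 mPFC RCF 4 and 0.0444 without DBA mPFC RCF 4 (1.49). In DBA controls it was 0.86 higher in NAc (adjusted p 0.179), and 1.26 higher without the samples in doubt (adjusted p 0.0647). In C57 the NAc minus mPFC differences were -0.65 in controls and -0.59 with RCF (adjusted p 0.734 and 0.455), or -0.11 and -1.15 without the samples in doubt (adjusted p 0.963 and 0.0856).

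For vesicular storage, Slc18a2 was called in a single comparison, NAc of controls, where DBA was higher than C57 by 1.73 ± 0.51 (3.31-fold, adjusted p 0.0237). The DBA samples were -1.02, -1.23, -1.39 and -1.08, and the C57 samples -4.26 and -1.56. The difference rested on the same low C57 sample as above, since it was 0.38 (adjusted p 0.811) without it and 0.34 (adjusted p 0.785) without all samples in doubt. It also missed the threshold with normexp (1.05, adjusted p 0.0623), with the region score as a covariate (1.22, adjusted p 0.0851) and with only these groups fitted (adjusted p 0.152). In the other groups Slc18a2 held a narrow range, with means from -1.95 ± 0.07 (SD, n = 3) in DBA mPFC RCF to -1.18 ± 0.16 (n = 4) in DBA NAc control. DBA NAc RCF spread more, at -1.72, -1.19, -0.70 and -2.94. NAc minus mPFC in C57 controls was -1.25 (adjusted p 0.357), and -2.60 without C57 NAc control 2 and 4, which leaves only the sample in doubt in NAc. A second Slc18a2 probe was well above background on 9 arrays and was not tested.

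For breakdown, Maob was lower in DBA than in C57 mPFC under both treatments, and lower in NAc than in mPFC in 2 of 4 comparisons. C57 mPFC control samples were 1.90, 1.79 and 1.60 and C57 mPFC RCF samples 1.51, 1.77, 2.05 and 1.76. DBA mPFC control samples were 1.47, 0.98 and 1.07, and DBA mPFC RCF samples 0.89, 1.26 and 0.84. All C57 mPFC samples were above all DBA mPFC samples, and 44.3% of features separated these strains in controls and 45.0% with RCF. DBA was lower by 0.59 ± 0.19 in controls (1.51-fold, adjusted p 0.0245) and by 0.78 ± 0.17 with RCF (1.71-fold, adjusted p 0.00166).

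These Maob differences were -0.82 and -0.86 without the samples in doubt (adjusted p 0.00411 and 0.000294). The control call was lost without C57 mPFC control 1 (-0.52), C57 mPFC control 2 (-0.58), DBA mPFC control 2 and 4 (-0.49) or DBA mPFC control 3 (-0.54), with adjusted p from 0.0621 to 0.105. The RCF call was kept whichever sample was left out. In NAc, DBA minus C57 was -0.49 in controls and -0.37 with RCF (adjusted p 0.0901 and 0.129), or -0.27 and -0.25 without the samples in doubt (adjusted p 0.496 and 0.226). Without C57 NAc control 2 and 4 the NAc control difference was -0.77, but only the sample in doubt then stood for C57.

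The region difference of Maob had the same sign in every comparison. C57 NAc control samples were 1.41 and 0.85, and C57 NAc RCF samples 1.48, 0.87, 1.12 and 1.06. DBA NAc control samples were 0.66, 0.64, 0.43 and 0.84, and DBA NAc RCF samples 0.56, 0.73, 0.68 and 1.08. The DBA NAc RCF sample at 1.08 reached into the range of DBA mPFC RCF, and in the other 3 comparisons the regions did not overlap. Of all features, 28.7% did not overlap in C57 controls, 45.8% in DBA controls, 12.0% in C57 RCF and 48.4% in DBA RCF. NAc minus mPFC was -0.53 ± 0.17 in DBA controls (adjusted p 0.0196), -0.64 ± 0.16 in C57 RCF (adjusted p 0.018, or 0.0817 with only these groups fitted), -0.63 ± 0.21 in C57 controls (adjusted p 0.224) and -0.23 ± 0.17 in DBA RCF (adjusted p 0.297).

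The Maob region call in DBA controls was lost without DBA mPFC control 1 (-0.38) or DBA NAc control 3 (-0.46), with adjusted p of 0.12 and 0.0591. That in C57 RCF was lost without C57 mPFC RCF 3 (-0.55), C57 NAc RCF 2 (-0.55) or C57 NAc RCF 4 (-0.62), with adjusted p from 0.0517 to 0.0862. With the region score as a covariate Maob was -0.10 between the regions of DBA controls and -0.42 in C57 RCF (adjusted p 0.816 and 0.114). As for Ddc, the score is built from region markers, so these region values cannot tell region from score. The lower Maob level in DBA mPFC was -0.69 in controls and -0.94 with RCF in that fit (adjusted p 0.00253 and 9.7e-05). Of 8 astrocyte markers, 1 was lower in DBA mPFC under each treatment, and 2 and 3 were higher in NAc of DBA controls and DBA RCF. The part of any cell type in the Maob differences was not tested. Without the samples in doubt Maob was lower in NAc by 0.99 in C57 controls, where NAc kept 1 sample. It was also lower by 0.84 in C57 RCF (adjusted p 0.000527) and 0.45 in DBA controls (adjusted p 0.0365).

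Maoa was nearly level across the 8 groups. Its means ran from 0.02 ± 0.06 (SD, n = 3) in DBA mPFC RCF to 0.23 ± 0.15 (n = 4) in DBA NAc RCF, a span smaller than 1 SD of the most variable group, C57 mPFC control (0.23). Of its 12 differences none passed, and the largest was 0.21 ± 0.12 between the DBA RCF regions (adjusted p 0.171).

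Counted over the genes, 1 of 6 differed between strains in mPFC controls, where 24.4% of all features did. The count was 1 of 6 in NAc controls (17.2% of features), 3 of 6 in mPFC RCF (35.0%) and 0 of 6 in NAc RCF (15.8%). Between regions it was 0 of 6 in C57 controls (0.0994%), 2 of 6 in DBA controls (38.3%), 1 of 6 in C57 RCF (7.70%) and 1 of 6 in DBA RCF (39.0%). With 6 genes, none of these shares is read as different from the background of its comparison. The median of all features was -0.13 between the DBA regions in controls and -0.14 with RCF, and -0.01 and -0.03 after quantile normalization, so changes there are read relative to that shift. Normexp moved the median of DBA minus C57 in mPFC controls from 0.08 to -0.13.

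The 4 interactions with treatment called 0 of 6 genes each and 0% of all features. Strain by region, averaged over treatments, called 2 of 6 genes, where 31.4% of features were called. The NAc minus mPFC difference was larger in DBA than in C57 by 1.62 ± 0.52 for Ddc (adjusted p 0.022) and by 1.61 ± 0.52 for Slc6a3 (adjusted p 0.0218). Without the samples in doubt the Ddc term lost its call at 0.57 and the Slc6a3 term was 1.82, with 1 sample left in C57 NAc control. Leaving out C57 NAc control 1 and 3 alone ended both calls, at 1.08 for Ddc (adjusted p 0.138) and 1.41 for Slc6a3 (adjusted p 0.0811). The Ddc term also missed the threshold with normexp (1.37), with both probes averaged (1.11) and with the region score as a covariate (0.53), at adjusted p from 0.0571 to 0.184. The Slc18a2 term was 0.94 (adjusted p 0.127), and passed at 1.16 without DBA NAc RCF 4 (adjusted p 0.0356). It was 1.62 without C57 NAc control 2 and 4, which leaves only the sample in doubt in that group. The Maob strain by region term was 0.26 (adjusted p 0.286) with all samples and 0.58 without the samples in doubt. The Slc18a2 strain by treatment term in NAc was -2.06 (adjusted p 0.434), and -3.41 without C57 NAc control 2 and 4, again with only the sample in doubt left there.

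The rest of the amine pathway was followed in a list of 16 genes, of which 12 could be tested and Slc18a1, Slc22a3, Slc6a2 and Slc6a4 were too dim. RCF against control called 0 of 12 in each of the 4 comparisons. Gch1, which starts the synthesis of the cofactor tetrahydrobiopterin, passed in none of the 12 comparisons, and its differences lay between -0.44 and 0.20. Without the samples in doubt Gch1 was lower in DBA mPFC by 0.64 in controls and 0.46 with RCF (adjusted p 0.0226 and 0.0271).

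Between strains the list had 1 of 12 genes higher in DBA in mPFC controls, where 16.0% of all features were higher and 8.43% lower. It had 2 higher in NAc controls (6.08% of features higher and 11.1% lower), 1 higher and 1 lower in mPFC RCF (21.7% and 13.3%), and 0 in NAc RCF (15.8% in either direction). These counts are too small to be read as different from those shares. Aldh2, the mitochondrial aldehyde dehydrogenase that clears the aldehydes made by monoamine oxidase, was higher in DBA by 0.72 in mPFC controls, 0.87 in NAc controls and 0.68 in mPFC RCF (adjusted p 0.02, 0.0126 and 0.0126). Pts, an enzyme of tetrahydrobiopterin synthesis, was 0.58 higher in DBA NAc controls, and Qdpr, which regenerates the cofactor, 0.62 lower in DBA mPFC RCF on the log2 scale. When the samples in doubt were left out, both calls in NAc controls were lost, with Aldh2 at 0.49 (adjusted p 0.385) and Pts at 0.50 (adjusted p 0.211). The mPFC calls of Aldh2 and Qdpr were kept.

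Between regions the list had 3 genes higher and 1 lower in NAc of DBA controls, where 38.3% of all features differed and 27.6% were lower. It had 1 higher and 1 lower in C57 RCF (2.96% of features higher and 4.74% lower), 4 higher and 1 lower in DBA RCF (11.9% and 27.1%), and 0 in C57 controls (0.0994% in either direction). These counts too are small, and nothing particular to the list is read from them. In DBA, Gchfr, which regulates the enzyme made by Gch1, was higher in NAc by 1.91 and 1.50, Qdpr by 0.64 and 0.89 and the monoamine transporter Slc29a4 by 1.61 and 1.26, in controls and RCF in that order. Aldh1a1, another aldehyde dehydrogenase, was 0.86 higher in DBA RCF (adjusted p 0.0274). Dbh, which turns dopamine into noradrenaline, was lower in NAc by 2.65 in DBA controls, 2.32 in C57 RCF and 2.02 in DBA RCF. In NAc it was well above background on 3 of 4 arrays in DBA controls, 1 of 4 in C57 RCF and 3 of 4 in DBA RCF. The sizes of these Dbh differences are therefore uncertain. Aldh2 was 0.75 higher in NAc of C57 RCF. Leaving out the samples in doubt kept all of these region calls. It also added calls, all higher in NAc: Qdpr and Slc29a4 in C57 RCF, Aldh1a1 in DBA controls and Spr in DBA RCF. Qdpr and Slc29a4 were thus not particular to DBA. In C57 controls, where NAc then held 1 sample, the differences were -2.80 for Dbh and 1.94 for Slc29a4. Strain by region called Gchfr (1.69) and Pts (0.50), and neither kept its call without the samples in doubt, at 1.33 and 0.45. The Gch1 term was then 0.59. The list's median NAc minus mPFC difference was 0.24 in DBA controls and 0.30 in DBA RCF, beside -0.13 and -0.14 over all features.

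**Figure D4:**
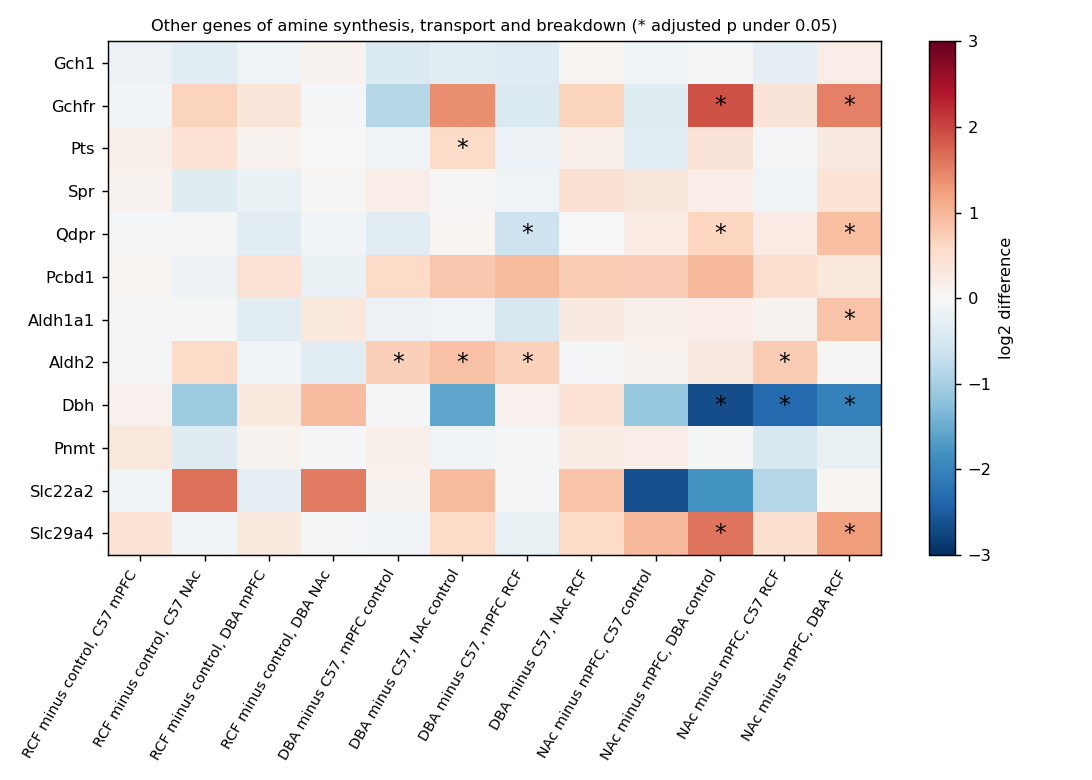
Colour gives the log2 difference of 12 genes (rows) in 12 comparisons (columns), red higher and blue lower in the first-named group, and an asterisk marks a limma adjusted p under 0.05. No asterisk stands in the 4 RCF columns, and Dbh is lower in NAc by 2.65, 2.32 and 2.02 in the marked columns. Dbh was not well above background on every NAc array.

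The genes most like each member over the 27 samples were found among 16412 named genes by Pearson's r of their levels, given as a description, since these samples share groups and slides. Ddc was most like Galr1, Gfra1 and Gpr101 (r of 0.97 each). Maob was most like Eva1c, Agap3 and Fnbp1l (0.94 each), and Th like Nmb (0.88), Lgr5 (0.86) and Scgn (0.85). Slc6a3 was most like Cdca7 (0.84), Cd24a (0.78) and Trp53inp1 (0.78), Slc18a2 like Cxcr6 (0.87), Zbtb5 (0.85) and Pes1 (0.83), and Maoa like Stx16 (0.73), Slc1a6 (0.71) and Ofd1 (0.71).

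When group means were removed, the likeness of Ddc to Galr1 (0.96) and Gfra1 (0.94) stayed, with Pllp next (0.94). Without the samples in doubt the closest to Ddc were Slc25a10 (0.93), Ivd (0.90) and Rnd2 (0.89), none of which was among the first lists. For Th the closest after removing group means were Rab37 (0.88), Lgr5 (0.86) and Frmd7 (0.85), for Slc6a3 Abhd5, Cdca7 and Peli2 (0.80 each), for Slc18a2 Cxcr6 (0.91), Olfr288 (0.86) and Sp140 (0.86), for Maoa Timp2 (0.77), Ddrgk1 (0.76) and Lrrc29 (0.75), and for Maob Asb1 (0.86), Ccng1 (0.86) and Sowahb (0.86). Among the members themselves, deviations from group means gave r of 0.68 between Ddc and Slc18a2, 0.64 between Th and Slc6a3 and -0.59 between Ddc and Maob. These r include the samples in doubt and are not given without them, so they are not read as the genes varying together. In C57 NAc control the sample in doubt was the lower one for both Ddc (0.04 against 2.22) and Slc18a2 (-4.26 against -1.56).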

How the data were processed

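Spot intensity values were made by the authors with Agilent Feature Extraction 10.7.3.1 from single-colour Cy3 arrays, per the file headers, with the background already subtracted. The deposited value table holds log2 values of 30067 probes of the same arrays, and its scale was checked against the scanner files (best match r at least 0.999996), while the rule for its probes is not given in the sources used here. Arrays took the label of the table column they matched. Repeat spots were averaged, log2 signals were centred on each array's 75th percentile, and probes were kept that 3 or more arrays of any group measured well above background. Per array, 58.6 to 82.0% of probes were well above background, and the number of arrays limits the precision. The brightest probe stood for each gene, giving 30178 features. A model with 8 group means was fitted with limma 3.58.1 in R 4.3.3, with an intensity trend and Benjamini-Hochberg adjustment over all features, and was tested on simulated data. The labels do not say whether both regions came from the same animals, nor name separate cultures or litters per sample, so p-values measure the spread between these samples. The members and lists were chosen with earlier results of these data known. Members and pathway genes were named by a rule: members everywhere, pathway genes where they passed, and the 3 most alike genes. Alternatives covered normalization, background, filter, probe choice, array labels, averaging, samples in doubt, weights, trend, replicate block and slide row. Normexp was run on the median signal in place of the mean signal. Some genes of the lists are not reported here and are left out of the pathway counts.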

Additional observations from a re-analysis of the deposited data

Results flagged for a closer look

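In a group of 4 samples, Th in C57 NAc RCF had a single sample, number 1, at 2.67 while the others lay between 1.18 and 1.28. This is a sample in doubt for its region, with a striatal minus cortical score of -0.53. Of 24 groups of values looked at in this way 1 stood out, and chance alone flags about 5% of groups.

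The NAc minus mPFC difference was larger in DBA than in C57 by 1.62 for Ddc and by 1.61 for Slc6a3, each by limma's test of the interaction itself. Both calls were lost without C57 NAc control 1 and 3, at 1.08 for Ddc (adjusted p 0.138) and 1.41 for Slc6a3 (adjusted p 0.0811). Without all samples in doubt the Ddc term lost its call at 0.57 and Slc6a3 was at 1.82, with 1 sample left in C57 NAc control.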

How the results depend on the processing

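Taking strain, region and treatment labels as listed for the scanner files had the greatest effect. That fit also kept near-duplicate arrays apart, so labels and averaging changed together. With scanner files taken as listed, RCF against control called 5 member differences against 0 as reported, NAc against mPFC 0 against 4, and interactions 1 against 2. Under those labels the differences that changed sign were, for RCF minus control, Maob in C57 mPFC (-0.56) and Ddc (-1.30), Slc6a3 (-2.02) and Maob (-0.88) in C57 NAc. For DBA minus C57 they were Slc18a2 in NAc controls (-0.36), Ddc (2.31) and Slc6a3 (0.74) in mPFC RCF and Ddc in NAc RCF (2.39), and beside these Ddc between the DBA RCF regions (-0.075) and the Slc6a3 strain by region term (-0.27).

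With near-duplicate arrays kept apart, RCF called 1 and DBA against C57 called 8 against 5. DBA against C57 called 3 with only the compared groups fitted, 9 with array weights and 8 with the replicate block, which also kept near-duplicates apart. NAc against mPFC called 8 without the samples in doubt and 8 with array weights. Normexp and the mean of all probes each left 1 interaction call. After seeing the data, a region score covariate was added, which left 0 calls between regions but is itself made of region markers. Near-duplicates kept apart without the samples in doubt, also added then, gave 8 between strains and 9 between regions. Leaving out single samples gave 0 to 1 RCF calls, 3 to 7 strain calls and 0 to 4 interaction calls. Of 11 called differences under 14 alternatives other than the listed labels, 136 of 154 values kept direction and call, 18 lost the call and 0 reversed. The labels do not say whether replicate numbers pair samples: between regions of a strain and treatment, deviations of same-numbered arrays correlated above 0.1 in 4 of 15 pairs (median r -0.015, from -0.64 to 0.42), beside a median of 0.046 over 45 pairs of unlike number. The brightest probe of each of the 6 genes was well above background on all arrays, and 2 to 4 samples a group limit the precision.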
